A study of Chromochloris zofingiensis with 18 samples.

Results

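Of the 15220 genes of the green microalga Chromochloris zofingiensis with a value in at least 1 sample, 4 that the study's KEGG annotation places in the proteasome pathway are described here. They were selected on their FPKM at SS-6 h against 0 h, Cz09g20230 and Cz05g37130 for being higher and Cz08g32160 and Cz07g09200 for being lower. All 4 had a value in each of the 18 samples. The values of 0 h and SS-6 h therefore chose the genes and are given without a test, whereas the conditions from SS-12 h on did not enter the choice.

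The proteasome is the large protease of the cytosol and nucleus that breaks down proteins marked with ubiquitin. Its barrel-shaped core particle carries the proteolytic sites, which use a threonine residue, and its regulatory particle binds, unfolds and feeds in the ubiquitin-tagged substrates. Breakdown of proteins by this route returns amino acids, among them the sulfur-containing cysteine and methionine. Cz09g20230 and Cz05g37130 stand in the gene ontology (GO) lists for the proteasome core complex and for threonine-type endopeptidase activity. Cz08g32160 and Cz07g09200 were found in the KEGG list but not in these GO lists. Which subunit each gene encodes is not given in the sources used here, and their sequences were not analysed here.

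Cultures of the strain ATCC30412 were grown under continuous light with CO2-enriched air in column photoreactors, and each condition had 3 biological replicate cultures. Cells of the 0 h condition were taken at re-inoculation into a medium in which magnesium chloride replaced magnesium sulfate, and the SS samples are cells after 6, 12, 24 or 48 h of that sulfur starvation, named SS-6 h to SS-48 h. The last set, SR-12 h, had 12 h of sulfur replenishment (SR) once starvation had lasted 48 h. The sources differ on whether sulfate was added to the starved culture or the cells were moved to fresh medium. The unit is FPKM, a count of fragments divided by transcript length and by the depth of the library, so that levels of different genes can be set side by side per length.

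Between 14351 and 14867 genes were listed per sample. The depth of a sample relative to the median of all samples, estimated from how finely low FPKM values are spaced, was 0.931 to 1.02 in 17 samples and 0.762 in SS-6 h replicate 1. The paper reports about as many clean reads for that library as for the others, but the lowest share mapped to genes. That library also stood apart from its replicates, with Pearson r of log2(FPKM + 1) of 0.949 and 0.966 to the other two, against 0.986 or more for every other pair of replicates. The Rubisco small subunit gene Cz17g13100, a marker of a photosynthetic cell, had the highest mean FPKM of all genes in each of the 6 conditions. In a bulk culture, a change in the share of cells that express a gene and a change in its RNA per cell cannot be told apart.

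Cz09g20230 was the more abundant of the core particle genes. Its FPKM was 155.91, 132.01 and 157.33 at 0 h and reached 570.19, 406.71 and 372.07 at SS-6 h. Values of 362.61, 364.46 and 367.51 followed at SS-12 h, then 320.35, 316.84 and 301.47 at SS-24 h. The 3 cultures at SS-12 h were nearly alike, with a coefficient of variation of 0.678%, and all of them were above all 3 of SS-24 h. The last starved cultures, SS-48 h, had 235.12, 217.1 and 215.9, and the replenished ones 226.96, 237.95 and 229.18. In ascending order of the mean the conditions were 0 h, SS-48 h, SR-12 h, SS-24 h, SS-12 h and SS-6 h, and among neighbours in that order the replicates overlapped for the pair SS-48 h and SR-12 h alone.

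Cz05g37130, also listed in the core complex, had FPKM of 109.08, 93.11 and 107 at 0 h and 447.44, 277.38 and 235.66 at SS-6 h. The SS-12 h cultures had 310.5, 277.86 and 306.53, and the SS-24 h cultures 260.94, 258.68 and 265.23. At SS-6 h replicate 1 was far above the other replicates, which lay below all 3 SS-12 h values. Later the values were 229.74, 196 and 232.29 at SS-48 h, and after replenishment 188.74, 196.61 and 193.94. The order was 0 h, SR-12 h, SS-48 h, SS-24 h, SS-12 h and SS-6 h, with overlap among neighbours between SR-12 h and SS-48 h and between SS-12 h and SS-6 h.

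The ratio of Cz09g20230 to Cz05g37130 in FPKM was 1.44 ± 0.0276 (SD, n = 3) at 0 h and 1.44 ± 0.154 at SS-6 h. It was 1.23 ± 0.0757 after 12 h and 1.20 ± 0.0518 after 24 h of starvation, and 1.20 ± 0.0148 in the replenished cultures. At SS-48 h it was 1.02 ± 0.0892, where the replicates ranged from 0.929 to 1.11 and stood below all replicates of the other conditions. Thus Cz09g20230 was the higher gene in each condition on average, by the least at SS-48 h.

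Cz08g32160 was the least abundant of the 4 genes and the one with the widest range. Its FPKM was 9.53, 9.46 and 10.02 at 0 h and 1.02, 0.36 and 0.66 at SS-6 h. After 12 h of starvation it was 2.45, 2.34 and 2.13, and after 24 h it was 12.03, 14.57 and 12.05. By 24 h of starvation all 3 cultures had thus passed the 0 h cultures. At SS-48 h they were back at 2.25, 3.39 and 2.32, and the SR-12 h cultures had 20.13, 20.11 and 18.14. The order was SS-6 h, SS-12 h, SS-48 h, 0 h, SS-24 h and SR-12 h, with overlap only between the cultures of 12 and 48 h of starvation. The mean at SR-12 h was 28.6 times that at SS-6 h, where the gene rests on few reads.

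Cz07g09200 had FPKM of 31.97, 31.87 and 20.25 at 0 h and 2.4, 11.26 and 15.74 at SS-6 h. The cultures of SS-12 h gave 16.86, 21.95 and 19.59 and those of SS-24 h gave 25.64, 23.42 and 23.68. From SS-6 h to SS-24 h no culture of a later condition was below any culture of an earlier one. The SS-48 h cultures had 33.44, 36.94 and 36.38, and the SR-12 h cultures 24.91, 24.31 and 25.29. Lowest was SS-6 h, followed by SS-12 h and then SS-24 h, and above these came SR-12 h, 0 h and SS-48 h. Among neighbours in this order, overlaps were between SS-24 h and SR-12 h and between SR-12 h and 0 h, and the 0 h range also took in values of SS-12 h and SS-24 h. The highest level of this gene was thus at SS-48 h, when Cz08g32160 was low. Of all genes, 35.2% had their highest mean at SS-48 h.

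**Figure D1:**
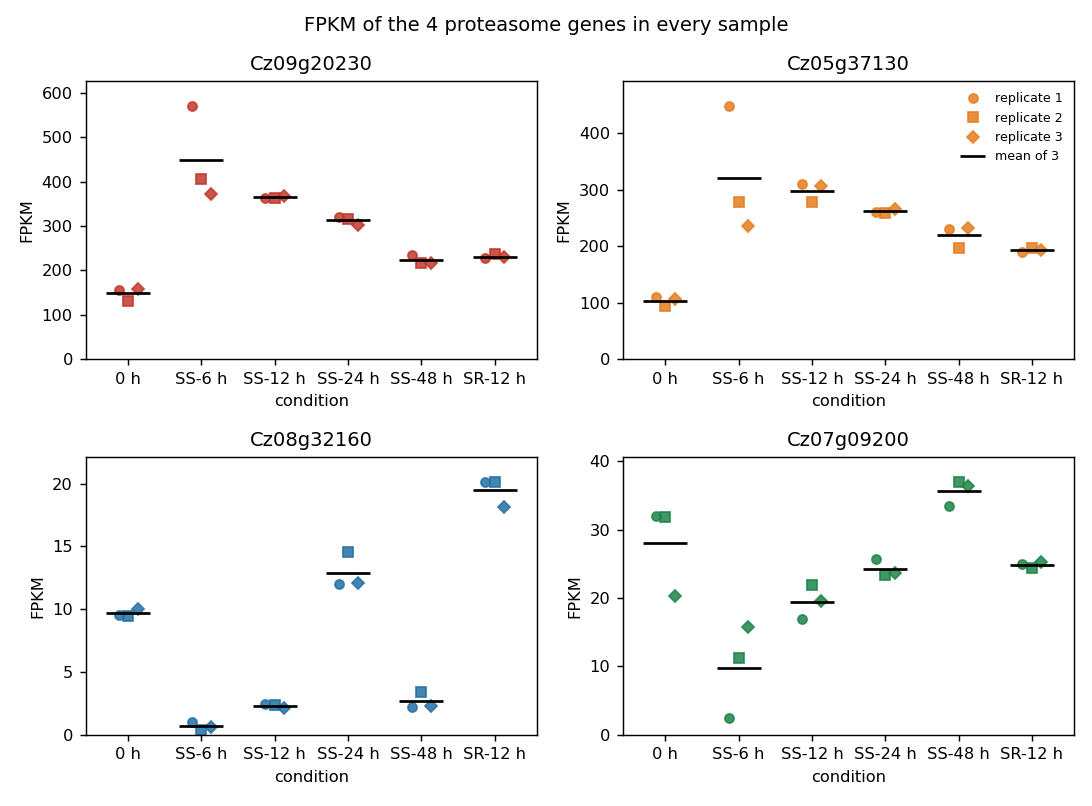
FPKM of each of the 4 genes (y axis, linear, from 0, scaled per gene) in the 6 conditions (x axis); symbols are the 3 replicates and the black line is their mean. Cz09g20230 and Cz05g37130 have their highest mean at SS-6 h, where replicate 1 is highest. Without that replicate the SS-6 h mean of Cz05g37130 is 257, below its SS-12 h mean of 298. Cz08g32160 alternates between low and high conditions and is highest at SR-12 h (18.14 to 20.13), and Cz07g09200 is highest at SS-48 h (33.44 to 36.94).

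The levels of the 4 genes can be set beside those of the other proteasome genes. In the KEGG list, 24 further genes were analysed, of which 11 are in the GO core complex list. The median of their mean FPKM was 105 before starvation, 232 after 6 h, 204 after 12 h, 206 after 24 h and 137 after 48 h of it, and 157 after replenishment. Cz09g20230 was above 22 of the 24 at 0 h and above all 24 after 6 and after 12 h of starvation. Cz05g37130 was above 11 of them at 0 h and above 22 at SS-48 h. Cz08g32160 and Cz07g09200 were below all 24 in every condition: the lowest of the 24 had a mean FPKM of 39.5 at 0 h, against 28.0 for Cz07g09200 and 9.67 for Cz08g32160.

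Against 0 h, the contrast that chose the genes gave log2 fold changes of FPKM + 1 at SS-6 h of 1.57 ± 0.118 (SE, limma, n = 3 per condition) for Cz09g20230 and 1.57 ± 0.162 for Cz05g37130. Both lay within their SE of the highest of the other 24 genes, Cz05g10060, which is in the core complex list and had 1.55. The lowest of the 24, Cz07g22040, had 0.82. The changes of Cz08g32160 and Cz07g09200 were -2.69 ± 0.142 and -1.68 ± 0.392. Without SS-6 h replicate 1 the values were 1.39 for Cz09g20230, 1.31 for Cz05g37130 and -2.83 for Cz08g32160. That of Cz07g09200 was then -0.99, as this replicate had the lowest value of the gene in the series. The median change over genes averaging 1 FPKM or more was -0.20 in this contrast.

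The later changes from 0 h share the 0 h cultures with the choice. For Cz09g20230 the log2 fold change was 1.30 after 12 h of starvation, 1.07 after 24 h, 0.59 after 48 h and 0.64 after replenishment, each ± 0.118. For Cz05g37130 it was 1.53, 1.34, 1.08 and 0.90, each ± 0.162. At SS-48 h Cz05g37130 was thus above 23 of the 24 other genes in its change from 0 h, while Cz09g20230 was in the middle, above 12 of them. Cz08g32160 had -1.69, 0.38, -1.56 and 0.94 in the same order, each ± 0.142. Cz07g09200 had -0.48, -0.17, 0.36 and -0.14, each ± 0.392.

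**Figure D2:**
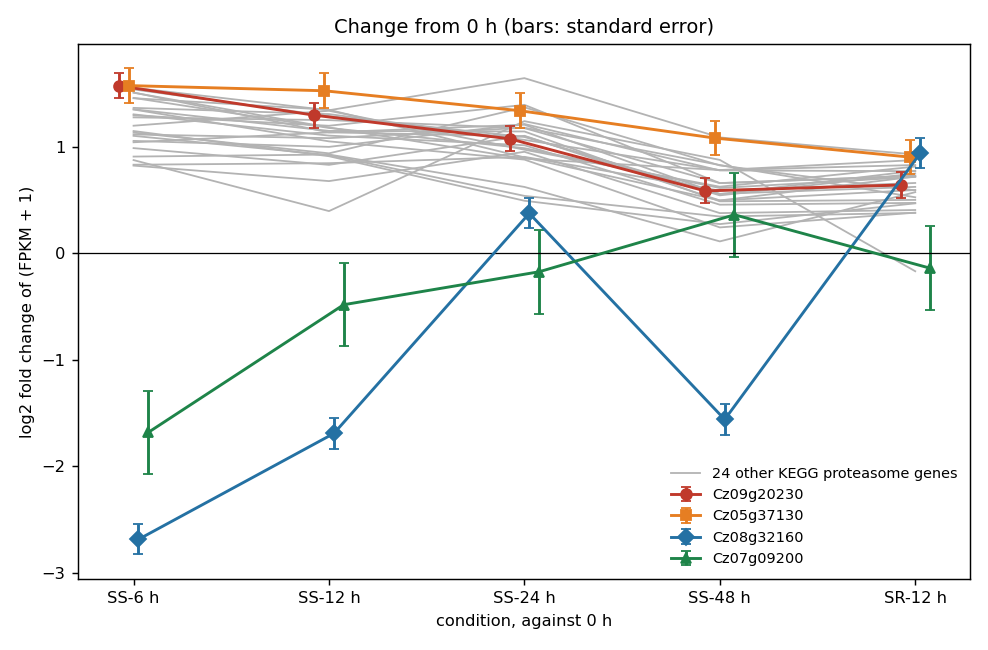
Log2 fold change of FPKM + 1 against 0 h (y axis) at SS-6 h to SR-12 h (x axis) for the 4 genes, with limma standard errors as bars, and for the 24 other KEGG proteasome genes as grey lines. Cz09g20230 and Cz05g37130 run with or above the grey lines, whereas Cz08g32160 goes from -2.69 at SS-6 h to 0.94 at SR-12 h and Cz07g09200 from -1.68 to -0.14.

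The conditions from SS-12 h on were not used by the rule and allow a test, although the genes were proposed with earlier results of these data known. A gene was called where its log2 fold change reached 1 in either direction and its adjusted p was 0.05 or less (limma, Benjamini-Hochberg over all 15220 genes). Only Cz08g32160 was called, in 4 of the 6 comparisons. From SS-12 h to SS-24 h it rose by 2.07 ± 0.142 (adjusted p = 7.7e-09), where 11.2% of all genes were called higher. From SS-24 h to SS-48 h it fell by 1.93 ± 0.142 (adjusted p = 1.8e-08), against 6.59% of all genes called lower. On replenishment it rose again, from SS-48 h by 2.50 ± 0.142 (adjusted p = 6.9e-10), against 8.21% called higher. SR-12 h was also higher than SS-12 h, by 2.63 ± 0.142 (adjusted p = 9.3e-10), against 8.56% called higher. Replicates did not overlap in these 4 comparisons, as was so for 73.3%, 71.0%, 78.1% and 71.1% of all genes in the same order.

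The other comparisons of Cz08g32160 stayed under the threshold for the fold change. SR-12 h was above SS-24 h by 0.56 ± 0.142 (adjusted p = 0.0036, or 0.055 with a pseudocount of 0.1). SS-48 h and SS-12 h overlapped, with a difference of 0.13 and a 95% interval of -0.17 to 0.43. The sign of that difference turned under median-ratio scaling, under quantile normalization and without SS-48 h replicate 2.

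Cz09g20230 was lower late in starvation, without passing the threshold of 1 for the fold change. It was lower at SS-48 h than at SS-12 h by 0.71 ± 0.118 (adjusted p = 1.1e-04), and than at SS-24 h by 0.49 ± 0.118 (adjusted p = 0.0022). SR-12 h was lower than SS-12 h by 0.66 ± 0.118 (adjusted p = 2.7e-04) and than SS-24 h by 0.43 ± 0.118 (adjusted p = 0.0061). Replenishment left a change from SS-48 h of 0.06, with a 95% interval of -0.20 to 0.31. The difference between SS-48 h and SS-24 h was -0.73 under median-ratio scaling, and quantile normalization gave smaller differences in all 4, of -0.40, -0.25, -0.43 and -0.28 in the order given (highest adjusted p = 0.027). SS-24 h was lower than SS-12 h by 0.22, with an interval from -0.47 to 0.03. The limma adjusted p of this difference was 0.12, and 0.0068 without SS-6 h replicate 1, whose spread enters the SE.

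Cz05g37130 had the same direction in the comparisons with SS-12 h and SS-24 h, with smaller differences along starvation. Its log2 difference was -0.44 ± 0.162 from SS-12 h to SS-48 h (adjusted p = 0.029) and -0.26 from SS-24 h to SS-48 h, with an interval of -0.60 to 0.09. Against SR-12 h the differences were -0.62 ± 0.162 from SS-12 h (adjusted p = 0.0046) and -0.44 ± 0.162 from SS-24 h (adjusted p = 0.035). The difference from SS-12 h to SS-48 h was -0.71 under median-ratio scaling, -0.29 on rescaling to TPM (adjusted p = 0.059) and -0.13 under quantile normalization (adjusted p = 0.45). Its adjusted p was 0.080, 0.075 and 0.11 without SS-12 h replicate 1, SS-12 h replicate 3 and SS-48 h replicate 2. That of SR-12 h against SS-24 h was 0.11 and 0.12 under median-ratio scaling and quantile normalization, and 0.067 to 0.084 without any 1 of the 6 cultures compared. Between SS-48 h and replenishment the log2 difference was -0.18, with an interval of -0.53 to 0.17. The SE of these comparisons includes the spread of Cz05g37130 at SS-6 h (coefficient of variation 35.0%). Without SS-6 h replicate 1 the limma adjusted p was 0.0097 from SS-24 h to SS-48 h and 1.7e-04 from SS-12 h to SS-48 h. It was then 2.1e-04 from SS-24 h to SR-12 h. The differences were unchanged and still under the threshold for the fold change.

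Cz07g09200 was highest at SS-48 h but was not called in any comparison. The difference between SS-48 h and SS-12 h was 0.84 ± 0.392 (adjusted p = 0.078). The SE is that of a fit of all 6 conditions, which includes the wide spread of this gene at SS-6 h (coefficient of variation 69.3%, against 1.99% at SR-12 h). Without SS-6 h replicate 1 the same difference of 0.84 had an SE of 0.152 and an adjusted p of 1.8e-04, still under the threshold for the fold change. The difference between SR-12 h and SS-48 h was -0.50, with an adjusted p of 0.27, or of 0.0078 without that library. Under median-ratio scaling this difference was -0.16 (adjusted p = 0.75). That between SS-48 h and SS-24 h was 0.54 (adjusted p = 0.26), and 0.30 under median-ratio scaling (adjusted p = 0.55).

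A moderated F test over these 4 conditions asked whether a gene varied at all among the conditions that had not chosen it, and 84.5% of all genes passed it at an adjusted p of 0.05. Cz08g32160 (F = 178, adjusted p = 1.9e-10), Cz09g20230 (F = 16.9, adjusted p = 9.4e-05) and Cz05g37130 (F = 5.75, adjusted p = 0.011) were among them. Cz07g09200 was not (F = 1.59, adjusted p = 0.25), but it passed without SS-6 h replicate 1 (F = 10.5, adjusted p = 8.2e-04).

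**Figure D3:**
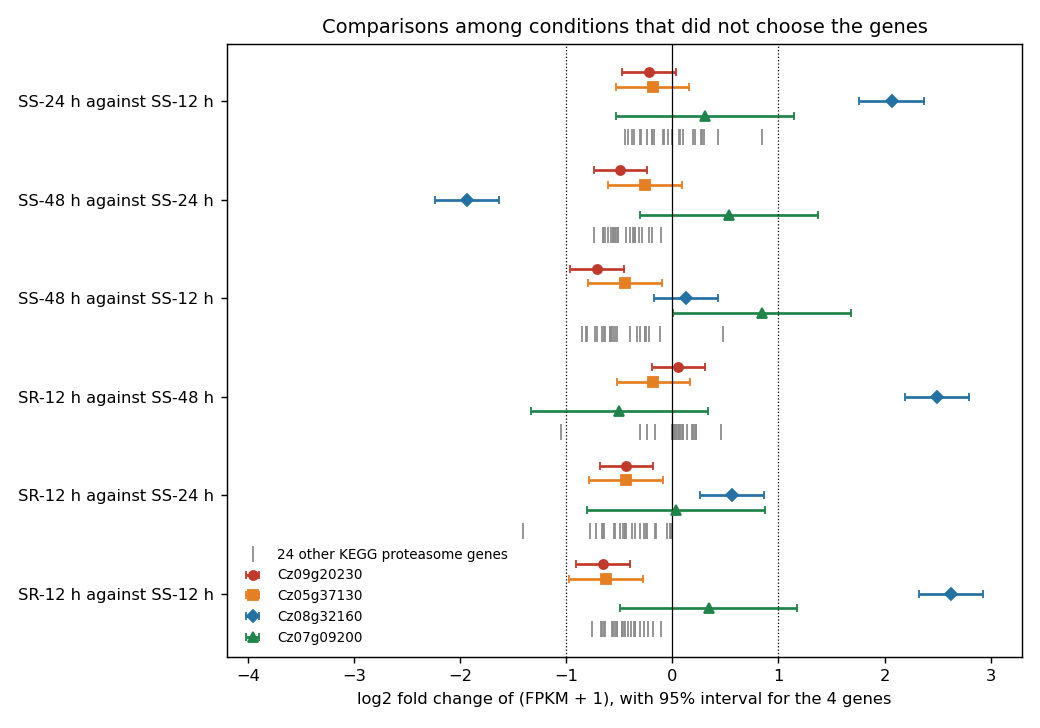
Log2 fold change of FPKM + 1 (x axis) of the 4 genes, with 95% intervals, in the 6 comparisons among the conditions from SS-12 h on (y axis); grey ticks are the 24 other KEGG proteasome genes and dotted lines mark a change of 1 in size. Cz08g32160 lies beyond the dotted lines in 4 comparisons (2.07, -1.93, 2.50 and 2.63), and Cz09g20230 and Cz05g37130 lie among the grey ticks in each.

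Most of the other proteasome genes were, like Cz09g20230 and Cz05g37130, higher early in starvation. At SS-6 h, 19 of the 24 were called higher than at 0 h and 0 were called lower by limma (0 also at an unadjusted p under 0.05), against 9.64% of all genes called higher and 21.7% called lower. The study drew this list from this contrast, so the count is not independent evidence of its direction. The 19 became 14 on leaving out replicate 1 of SS-6 h, and 6 under quantile normalization. The later comparisons share the 0 h cultures with the contrast that gave the list, so their counts are not independent either. After 12 h of starvation 15 of the 24 were called higher than at 0 h (7.42% of all genes). After 24 h it was 14 (4.57%) and after 48 h it was 1 (12.7%). That 1 gene was the core complex gene Cz05g10060, with 1.09 ± 0.106, and it was not called under median-ratio scaling.

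Among the conditions from SS-12 h on, the 24 genes were rarely called. From SS-24 h to SS-48 h all 24 had a negative log2 difference, with a median of -0.51 against 0.22 over all genes, and 0 were called by limma, while 20 had an unadjusted p under 0.05, as did 18.8% of all genes in that direction. From SS-12 h to SS-48 h, where 17.3% of all genes were called, the median was -0.57, and 0 were called while 21 had a negative difference with an unadjusted p under 0.05, against 17.4% of all genes. Under median-ratio scaling, which takes out the median shift of all genes, 3 were called in this comparison. Under all alternatives the median of the 24 was below 0 in both comparisons. This lean was not shared by every comparison. On replenishment against SS-48 h, 19 of the 24 were above 0, with a median of 0.07 against -0.32 over all genes. That sign depended on the scaling. On rescaling to TPM 17 of the 24 were below 0 (median -0.06), and under median-ratio scaling 1 was (median 0.42). Between SS-12 h and SS-24 h, 10 were above 0 (median -0.06, or 0.05 on rescaling to TPM). Against SS-24 h and SS-12 h, all 24 were lower after replenishment in sign, with medians of -0.44 and -0.47, against -0.01 and -0.10 over all genes. Against SS-24 h, 21 were lower under median-ratio scaling (median -0.33) and 20 under quantile normalization (median -0.28). Against SS-12 h, 23 were lower under quantile normalization (median -0.26). Cz09g20230 was near the middle of the 24 from SS-24 h to SS-48 h, with 13 genes lower. From SS-12 h to SS-48 h it was among the lower, with 5 genes lower. Cz08g32160 was above all 24 from SS-12 h to SS-24 h and again on replenishment, and below all 24 from SS-24 h to SS-48 h. Cz07g09200 was above all 24 in its change to SS-48 h from SS-24 h as well as from SS-12 h.

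A single gene of the 24, UNPLg00083, was called in these comparisons. After replenishment it was lower than at SS-48 h by 1.05 ± 0.123 (adjusted p = 2.1e-06, 18.0% of all genes called lower) and than at SS-24 h by 1.41 ± 0.123 (adjusted p = 1.3e-07, 9.13% called lower). Its mean FPKM was 139 and 108 after 24 and 48 h of starvation and 51.8 after replenishment. Like Cz08g32160 and Cz07g09200 it is in the KEGG list and not in the GO lists, but in these comparisons it went down where Cz08g32160 went up. The call against SS-48 h was lost without replicate 1 of SS-48 h (-0.98), under median-ratio scaling (-0.70) and under quantile normalization (-0.92).

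Genes of the ubiquitin system, which marks proteins for the proteasome, were read from the part of the study's annotation table available, which is sorted by expression. Of the 7, the E2 conjugating enzyme gene Cz16g21070 and the hexaubiquitin gene Cz16g13170 were called higher at SS-6 h than at 0 h, by 1.48 ± 0.132 (adjusted p = 8.1e-08) and 1.13 ± 0.150 (adjusted p = 6.8e-06). Cz07g21150, annotated as an E3 ligase of the RBBP6 type, was called lower, by 1.46 ± 0.264 (adjusted p = 1.5e-04). In this comparison 9.64% of all genes were called higher and 21.7% lower. Cz07g21150 rose from a mean FPKM of 93.7 at SS-12 h to 387 at SS-48 h, a log2 change of 2.02 ± 0.264 (adjusted p = 1.1e-05). Of all 15220 genes, 2014 were called higher there. Like Cz07g09200, Cz07g21150 had its highest mean at SS-48 h, as did 35.2% of all genes. Its lowest means, 91.2 after 6 h (43.81 to 121.72) and 93.7 after 12 h, came from cultures that overlapped.

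The polyubiquitin gene Cz12g04070 went the other way, from a mean FPKM of 831 at SS-12 h to 283 at SS-48 h and back to 875 after replenishment, with log2 changes of -1.57 ± 0.171 (adjusted p = 1.8e-06) and 1.64 ± 0.171 (adjusted p = 6.0e-07). Of all 15220 genes, 620 were called lower in the first comparison and 1249 higher in the second. The ADRM1-like gene Cz16g10040, a ubiquitin receptor of the regulatory particle, was lower at SR-12 h than at SS-12 h by 1.04 ± 0.144 (adjusted p = 2.4e-05). In that comparison 653 genes were called lower. Its mean FPKM was 263 at 0 h and 123 at SR-12 h, so SR-12 h was also below 0 h. Cz01g15090, the SKP1 subunit of E3 ligases, was called higher than 0 h after 24 and after 48 h of starvation, by 1.28 ± 0.0945 and 1.41 ± 0.0945 (adjusted p = 3.6e-08 and 5.6e-09). In these comparisons 4.57% and 12.7% of all genes were called higher. Cz11g28020, a ubiquitin fused to a ribosomal protein, was not called in any of the 12 comparisons.

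The 3 genes that the study's table gives the orthology term PSMD10, an ankyrin-repeat assembly factor of the regulatory particle in mammals, followed the course of Cz08g32160 rather than that of the other proteasome genes. Their best match in that table is an ankyrin, and Cz09g22260 and Cz03g14050 had identical FPKM in every sample, so their reads could not be told apart and they count as 1 measurement. The mean FPKM of Cz01g01190 was 24.4 at 0 h, 0.287 after 6 h, 7.17 after 12 h, 36.1 after 24 h, 8.85 after 48 h and 37.2 after replenishment. That of Cz09g22260 was 14.3, 0.287, 2.66, 20.6, 5.25 and 22.6 in the same order. Both measurements were called higher at SS-24 h than at SS-12 h (11.2% of all genes), lower after 48 h than after 24 h (6.59%), and again higher after replenishment (8.21%). For Cz01g01190 these log2 changes were 2.19 ± 0.217, -1.99 ± 0.217 and 2.03 ± 0.217 (adjusted p = 4.5e-07, 1.3e-06 and 7.7e-07).

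Likeness of pattern was measured as Pearson r of log2(FPKM + 1) over the 18 samples, among the 13778 genes that averaged 1 FPKM or more. It is a description, since replicates of a condition and the depth of a library are shared by all genes. The genes most like Cz09g20230 were Cz03g23070 (r = 0.987) and Cz15g12180 (r = 0.981), both in the KEGG list and the core complex list. Those most like Cz05g37130 were Cz07g28070 (r = 0.973), without an annotation in the tables used here, and the core complex gene Cz06g24010 (r = 0.971). Of the 27 other genes in the KEGG or GO lists, all 27 had an r above 0 with each of Cz09g20230 and Cz05g37130, with medians of 0.935 and 0.922. Over the 12 samples of the conditions that did not choose the genes, 26 of the 27 had an r above 0 with each, and the medians were 0.888 and 0.760. The r between Cz09g20230 and Cz05g37130 was 0.943, and 0.910 over those 12 samples.

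The genes most like Cz08g32160 were Cz01g01010 (r = 0.991), which the GO lists place in the cytoskeleton and the microtubule organizing center, and Cz02g08090 (r = 0.987), without an annotation in the tables used here. Cz01g01010 had a mean FPKM of 5.29 before starvation, 0.453 after 6 h, 1.33 after 12 h and 6.75 after 24 h. It had 2.15 after 48 h and 8.59 after replenishment, so it also alternated. With the ankyrin-annotated Cz09g22260 and Cz01g01190 the r of Cz08g32160 was 0.968 and 0.939. Such values were not particular to these genes, as 557 of 13777 genes had an r of at least 0.9 with Cz08g32160. Of the 27 proteasome-list genes 0 had an r above 0 with Cz08g32160, and the median was -0.424. Over the 12 samples of SS-12 h to SR-12 h the r with Cz01g01010 was 0.986, and the median with the 27 genes was -0.142, with 9 above 0.

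A course like that of Cz08g32160, with the mean of SS-6 h below that of 0 h, SS-24 h more than 2 times SS-12 h, SS-48 h under 0.5 times SS-24 h and SR-12 h more than 2 times SS-48 h, was found in 599 of 13778 genes, or 4.35%. It was found in 0 of the 24 other KEGG genes. That count was fixed by the first limit, since all 24 were higher at SS-6 h than at 0 h. It is therefore no evidence about the later conditions. These limits were set after the course of Cz08g32160 was seen, and the first of them is the contrast that chose it.

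The genes most like Cz07g09200 were Cz12g00240 (r = 0.989) and Cz11g27090 (r = 0.985), both without an annotation in the tables used here. Without SS-6 h replicate 1, in which both were also low, the r was 0.966 and 0.948. Cz12g00240 had a mean FPKM of 5.19 after 6 h and 27.4 after 48 h of starvation. The proteasome-list gene most like Cz07g09200 was Cz08g32160 (r = 0.457), and over the 12 samples from SS-12 h on the r between these genes was -0.105. Of the 27 other proteasome-list genes, 0 had an r above 0 with Cz07g09200 over the 18 samples (median -0.560), and 1 had over those 12 (median -0.766).

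**Figure D4:**
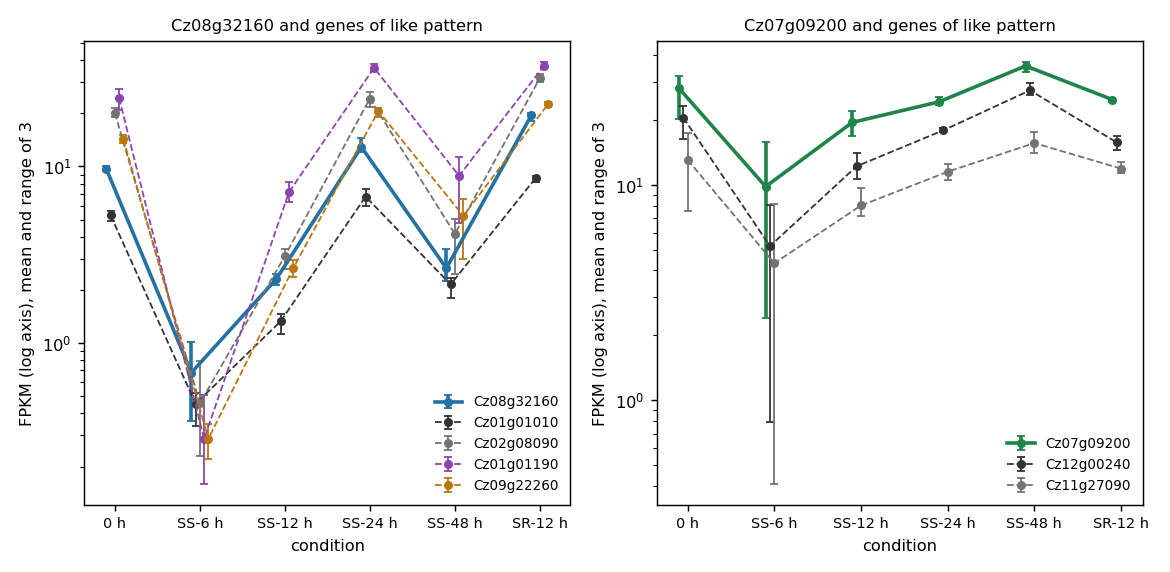
Mean FPKM (y axis, logarithmic; bars give the range of 3 replicates) in the 6 conditions (x axis) of Cz08g32160 with Cz01g01010, Cz02g08090 and the ankyrin-annotated Cz01g01190 and Cz09g22260 (left), and of Cz07g09200 with Cz12g00240 and Cz11g27090 (right). The genes on the left are low after 6, 12 and 48 h of starvation and have their highest mean at SR-12 h. For Cz01g01190 the ranges of SR-12 h and SS-24 h overlap. Those on the right have their lowest mean at SS-6 h and their highest at SS-48 h.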

How the data were processed

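Single-end poly-A RNA-seq of 18 cultures was analysed. The authors filtered the reads, aligned them with HISAT and Bowtie2 and quantified genes with RSEM (versions and genome build are not given in the sources used here); the deposited values are FPKM per gene and sample, to 0.01. Reads per sample were not used, so depth is given only relative to the median, and intervals rest on the spread between replicates. Genes missing from a sample's file were set to 0.

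The FPKM, with a pseudocount of 1 and on the log2 scale, went into a single limma 3.58.1 model of the 6 conditions (eBayes with trend, R 4.3.3), and p was adjusted by Benjamini-Hochberg over 15220 genes. FPKM are not counts, so the authors' DESeq2 was not repeated. Fold changes on this scale understate those of low genes. Python 3.11.15, pandas 2.3.3, numpy 2.4.6 and matplotlib 3.10.9 served for tables and figures. The fit was tested on simulated data.

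The members and gene lists were chosen with earlier results of these data known. Genes were named as follows: the 4 genes; of the 24 other KEGG genes the highest and lowest at SS-6 h and at most 3 called each way per tested comparison; the ubiquitin- and ankyrin-annotated genes; and for each of the 4 the 2 genes of highest r and the proteasome-list gene of highest r.

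As alternatives, pseudocounts of 0.5 and 0.1 were used, genes under a mean FPKM of 1 or of 5 were left out, and values were scaled by median ratios, to TPM or by quantiles. The model was also fitted to the compared conditions alone, with a replicate block, without the trend, and without each sample in turn.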

Additional observations from a re-analysis of the deposited data

How the results depend on the processing

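Of the 24 tested differences (4 genes in 6 comparisons), the calls were the same under all 28 alternatives, and the 4 calls of Cz08g32160 held in each. Signs turned only for small differences that were never called. For replenishment against SS-48 h, Cz09g20230 was -0.021 under quantile normalization and -0.076 on rescaling to TPM, and Cz05g37130 was 0.17 under median-ratio scaling. Cz07g09200 from SS-24 h to SR-12 h was -0.044 on rescaling to TPM. Cz08g32160 from SS-12 h to SS-48 h was -0.055 under median-ratio scaling, -0.56 under quantile normalization (adjusted p = 0.035), and -0.0084 to 0.21 on leaving out 1 sample, the negative value being that without SS-48 h replicate 2. In the F test, Cz05g37130 no longer passed under quantile normalization (F = 2.38, adjusted p = 0.13). Cz07g09200 passed in a fit of only the 4 conditions (F = 33.3, adjusted p = 2.1e-05), which leaves out its spread at SS-6 h, and its F was 1.07 to 10.5 on leaving out 1 sample, highest without SS-6 h replicate 1.

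On average the replicate numbers showed no pairing of the samples. Deviations of samples with the same number had a mean r of -0.001 over 45 pairs of samples (-0.57 to 0.35), and 12 of them were above 0.1. For samples with different numbers the mean r was 0.001, and 19 of 90 pairs were above 0.1. With a replicate block the number of genes called at SS-24 h against SS-12 h was 3028 instead of 3029, and the block changed no call of the 4 genes. Quantile normalization changed the number of the 24 other KEGG genes called higher from 19 to 6 at SS-6 h, from 15 to 8 at SS-12 h and from 14 to 8 at SS-24 h. Median-ratio scaling shifted the log2 differences by 0.20 to 0.33 in size in the comparisons of SS-48 h with other conditions and of SS-6 h with 0 h, and it split the genes called at SS-48 h against SS-12 h into 1336 higher and 994 lower, against 2014 and 620. For replenishment against SS-48 h it gave 1556 genes called lower, against 2732. The fold change of Cz08g32160 at SS-6 h was -3.74 with a pseudocount of 0.1, since the gene is near the limit of detection there.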
